A study of Mus musculus with 8 samples.

Results

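The barcodes described here carried little RNA and a raised share of mitochondrial RNA in single-nucleus libraries of mouse cortex. In each library they were the barcodes with at least 500 detected genes, under 1500 unique molecular identifiers (UMIs, one per captured RNA molecule) and more than 2% but at most 5% of UMIs from the 13 mRNAs encoded by the mitochondrial genome (mt RNA). They numbered 4009 of 97772 deposited barcodes, which is 4.88% of the 82168 barcodes with at least 500 genes and at most 5% mt RNA (the kept barcodes) and 0.609% of the UMIs of those barcodes. They were thus chosen by total UMIs, detected genes and mt share, so those values of the low-UMI mt-rich barcodes are given only as a description, and the 13 mt genes were left out of the edgeR comparisons of genes.

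The 8 libraries came from cerebral cortex with the medial cortex removed, taken at postnatal day 25 from C57BL/6J mice, 4 wild type (WT) and 4 carrying 1 disrupted copy of the chromatin remodeller gene Chd8 (Chd8+/-, here Chd8het). Each genotype had 2 males and 2 females, collected as litter- and sex-matched pairs. The tissue was flash-frozen, all nuclei were isolated in parallel with a commercial kit, and 3' v3 droplet libraries were made. All replicates numbered 1 carried single and all numbered 2 dual indexes, so replicate number and index type cannot be told apart. The construction of the Chd8 allele is not given in the sources used here. Chd8 itself was thinly sampled in the low-UMI mt-rich barcodes, with 244 UMIs over all 8 libraries. It stood at 56.4 to 82.5 CPM (counts scaled to a common total of non-mt UMIs) in WT and at 52.7 to 89.6 CPM in Chd8het libraries, which overlapped, and did not pass the genotype test (log2 difference -0.08, SE 0.25, adjusted p = 1.00 in edgeR). In the deep barcodes defined below it stood at 74.97 to 81.5 CPM in WT and 76.7 to 90.5 CPM in Chd8het, so Chd8 levels did not separate the labels.

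A nucleus holds mostly unspliced pre-mRNA and retained noncoding RNA, whereas mature mRNAs of ribosomal proteins, metabolic enzymes and cytoskeletal proteins are translated in the cytoplasm. Transcripts of the mitochondrial genome stay inside mitochondria, outside the nucleus, so their share in a nuclear preparation is commonly used as a measure of cytoplasmic RNA caught with a barcode. Brain tissue also holds mRNAs transported into neurites and glial processes, away from any nucleus.

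The low-UMI mt-rich barcodes had median totals of 786 to 1039 UMIs, 564 to 736 genes and 3.55% to 3.86% mt RNA per library. They were set against 71294 deep mt-poor barcodes (at least 1500 UMIs and at most 2% mt RNA, medians of 5956 to 9045 UMIs and 0.0663% to 0.215% mt RNA) and against 5895 low-UMI mt-poor barcodes (at least 500 genes, under 1500 UMIs and at most 2% mt RNA, medians of 1024 to 1183 UMIs). Values just inside and just outside each limit of the rule are given for 1 list. Ribosomal protein mRNAs took 1.26% of non-mt UMIs in 548 barcodes with 1.5 to 2% mt RNA and 1.72% in 537 barcodes just above 2%. They took 2.98% in 813 barcodes with 4.5 to 5% mt RNA and 3.13% in 836 barcodes just above 5%. At the UMI limit the same values were 2.15% in 94 barcodes up to 100 UMIs below it and 2.02% in 78 barcodes up to 100 UMIs above it. At the gene limit they were 2.58% in 711 barcodes up to 50 genes above it and 2.78% in 522 barcodes up to 50 genes below it. Of the 4009 barcodes, 100 (2.49%) had a barcode sequence also present in another library, against 2.29% of the deep mt-poor barcodes.

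The share of low-UMI mt-rich barcodes ranged from 2.31% to 8.10% of kept barcodes over the 8 libraries. Among WT libraries it was 2.31% of kept barcodes in male 1 (95% Wilson interval 2.02 to 2.63), 2.61% in male 2 (2.28 to 2.98), 2.42% in female 1 (2.15 to 2.73) and 6.12% in female 2 (5.69 to 6.58). Among Chd8het libraries it was 5.39% in male 1 (4.998 to 5.82), 8.10% in male 2 (7.61 to 8.63), 4.95% in female 1 (4.55 to 5.37) and 6.32% in female 2 (5.84 to 6.84). These intervals cover counting error only. WT female 2 lay within the Chd8het range and the other 3 WT libraries below it.

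**Figure D1:**
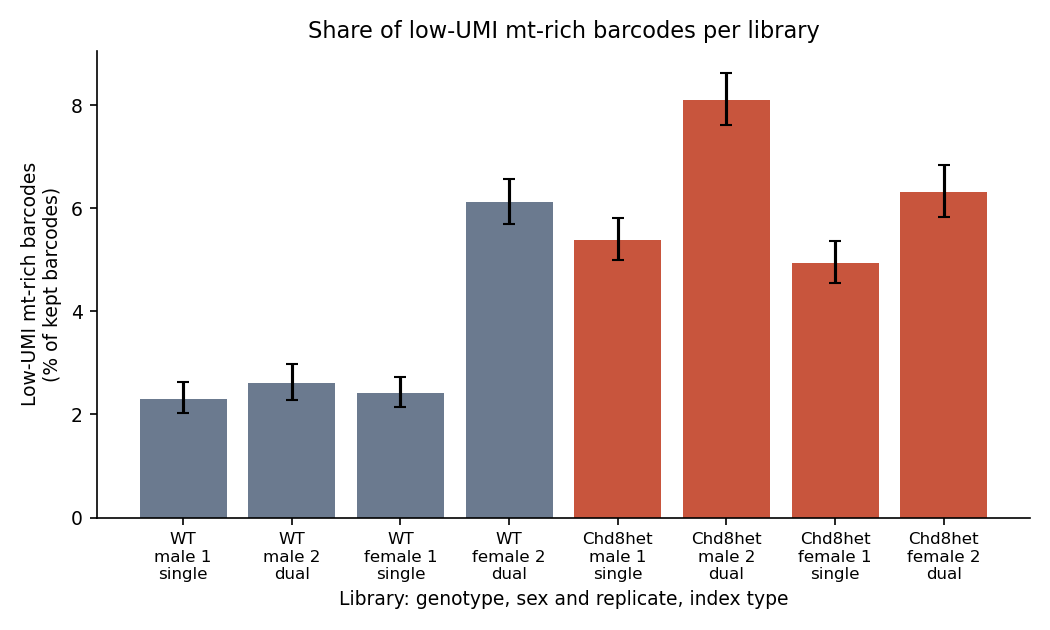
Share of low-UMI mt-rich barcodes in each library, in percent of barcodes with at least 500 genes and at most 5% mt RNA; bars are single libraries, coloured by genotype, and error bars are 95% Wilson intervals. WT male 1, male 2 and female 1 stand at 2.31% to 2.61% while WT female 2, at 6.12%, stands among the Chd8het bars.

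The mean share was 6.19% ± 1.40 (SD, n = 4) in Chd8het and 3.36% ± 1.84 (SD, n = 4) in WT, a difference of 2.83 percentage points that did not pass a two-sided exact permutation test (p = 0.0857, smallest possible 0.0286). The Chd8het library was higher in 4 of 4 sex- and replicate-matched pairs, for which the exact sign-flip p of 0.125 is the smallest possible. The difference was 2.80 points within the single-indexed and 2.85 points within the dual-indexed libraries. Without WT female 2, the only WT library within the Chd8het range, it was 3.75 points (exact permutation p = 0.0286). Leaving that library out separates the genotypes fully, so this p is the smallest possible and adds no evidence. With each library left out in turn, the exact permutation p ran from 0.0286 to 0.143. The lowest UMI total deposited also differed between libraries, from 508 to 719 in WT and from 634 to 833 in Chd8het. With only barcodes of at least 850 UMIs, above that minimum in every library, the difference was 2.497 points (exact permutation p = 0.114). With the UMI limit at 1000 it was 1.52 points (exact permutation p = 0.114), and Chd8het male 2 had the lowest Chd8het share (3.46%), below WT female 2 (4.27%). By index type the share was 5.79% ± 2.30 in dual-indexed and 3.77% ± 1.63 in single-indexed libraries (SD, n = 4 each), which did not pass the exact permutation test either (p = 0.143). The difference by index type was 2.02 points, and 1.00 points at the limit of 1000 UMIs (exact permutation p = 0.229).

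Against the deep mt-poor barcodes of the same libraries, the low-UMI mt-rich barcodes carried relatively more mRNA of ribosomes, respiratory chain, cytoskeleton and astrocyte cytoplasm, and relatively less RNA of very long neuronal genes. UMIs of non-mt genes were summed per library and class and fitted with library as a block in edgeR. Of 18686 genes tested, 10532 (56.4%) differed at an adjusted p under 0.05, 4683 (25.1%) of them higher and 5849 (31.3%) lower in the low-UMI mt-rich barcodes, with a median log2 difference over all genes of -0.17. Genes could pass the count filter through the deep sums alone, and 7930 genes passed it in the low-UMI mt-rich sums alone. These counts and the median therefore include genes with few low-UMI mt-rich UMIs. That split also depends on scaling. Without scaling beyond the totals 9778 genes (52.3%) differed, 6427 (34.4%) higher and 3351 (17.9%) lower, with a median of 0.22, so list medians are read against these medians. Levels of single genes below are CPM of non-mt UMIs after scaling by TMM (trimmed mean of M-values), given as the lowest, the median and the highest of 8 libraries. Summed levels of lists are percent of non-mt UMIs without TMM scaling, so the 2 measures can differ.

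The largest group was the cytosolic ribosomal proteins, the structural proteins of the translating ribosome. All 78 genes of this list that could be tested were higher, and in all 78 the libraries of both classes did not overlap. Here and below, non-overlap is a description, since its share over all tested genes is not given. Their median log2 difference was 3.65, ranging from 2.00 for Rpl6 to 4.34 for Rplp1. Summed, their mRNAs made up 2.05%, 2.18% and 3.39% of non-mt UMIs in the lowest, median and highest low-UMI mt-rich library, and 0.0861%, 0.134% and 0.237% in the deep mt-poor barcodes. The ratio within a library ran from 14.3 to 24.0. Rplp1, a stalk protein of the large subunit on chromosome 9 (GRCm38 61913284 to 61914542), was at 739, 819 and 1219 CPM against 18.9, 40.9 and 89.4 CPM (log2 4.34, SE 0.12, adjusted p = 6.13e-41). Rps29, of the small subunit, was at 450, 821 and 911 CPM against 18.8, 41.6 and 66.2 CPM (log2 4.27, SE 0.12, adjusted p = 4.63e-41). No library of either gene came near the other class. Ribosomal protein genes have many near-identical processed pseudogenes, so single values depend on how the authors assigned shared reads.

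Ribosomal protein mRNAs are known for a 5' terminal oligopyrimidine tract, a C followed by further C or T letters at the cap, through which their translation is regulated in the cytoplasm. Since this whole group moved together, the starts of the ribosomal protein genes among the 15 with the largest difference are shown, for the 5 of 7 that the RefSeq table (GRCm38.p6) holds. Each line gives 10 bases before and 20 bases from the annotated start on the gene's strand, with a run of C followed by at least 4 further C or T letters in capitals where it begins within 3 bases of that start.
Rpl26 chr11:68901556-68901585 plus strand: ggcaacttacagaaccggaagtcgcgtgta
Rps23 chr13:90923112-90923141 plus strand: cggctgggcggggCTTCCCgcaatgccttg
Rps21 chr2:180257369-180257398 plus strand: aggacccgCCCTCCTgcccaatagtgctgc
Rpl37 chr15:5116603-5116632 plus strand: cctgggcggaagcttatccacaggaagtgg
Rps4x chrX:102189372-102189401 minus strand: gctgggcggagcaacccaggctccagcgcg

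Only Rps23 and Rps21 of these 5 windows held such a run, and all 5 genes were higher by 4.04 to 4.11 on the log2 scale. Over the whole list, 23 of the 58 ribosomal protein genes in the table (39.7%) had a run on the sense strand within that window, against 3792 of all 32851 genes (11.5%). Among the other genes, 12.1% of those higher in the low-UMI mt-rich barcodes, 11.99% of those lower and 12.8% of those not called had one. A run in these letters is a description of the annotated start, which can lie some bases from the cap, and not a test of the motif.

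Nuclear-encoded subunits of oxidative phosphorylation, which are made in the cytoplasm and imported into mitochondria, were higher for 72 of 74 genes tested and lower for 1, with a median log2 difference of 2.80. Their summed level was 1.23%, 1.37% and 2.07% of non-mt UMIs, and 6.93 to 9.34 times that of the deep mt-poor barcodes. Cox8a, a small subunit of cytochrome c oxidase, was at 896, 1124 and 1672 CPM against 35.8, 69.7 and 141 CPM (log2 3.98, SE 0.12, adjusted p = 7.38e-40). The exception was Ndufs4, a complex I subunit, at 58.5, 80.1 and 119 CPM against 109, 121 and 134 CPM (log2 -0.46, SE 0.11, adjusted p = 0.000366). The Ndufs4 libraries overlapped between the classes, which those of Cox8a did not.

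Other mRNAs translated in the cytosol moved the same way. All 17 translation factors were higher (median log2 2.04), among them the elongation factor Eef1a1 at 244, 286 and 337 CPM against 28.4, 31.0 and 42.6 CPM. All 25 cytoskeletal and abundant cytosolic proteins were higher (median 2.91), among them the iron store Fth1 at 1955, 2248 and 3467 CPM against 73.4, 145 and 301 CPM. The actin-binding Tmsb4x was at 465, 594 and 777 CPM against 30.2, 50.7 and 80.6 CPM. Of 16 glycolysis genes, 11 were higher and 1 lower (median 1.09). Of 10 immediate early and heat shock genes, which respond within minutes to activity or stress, 9 were higher (median 1.69), and the list took 0.0157% to 0.0496% of non-mt UMIs per library against 0.00522% to 0.0149%.

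**Figure D2:**
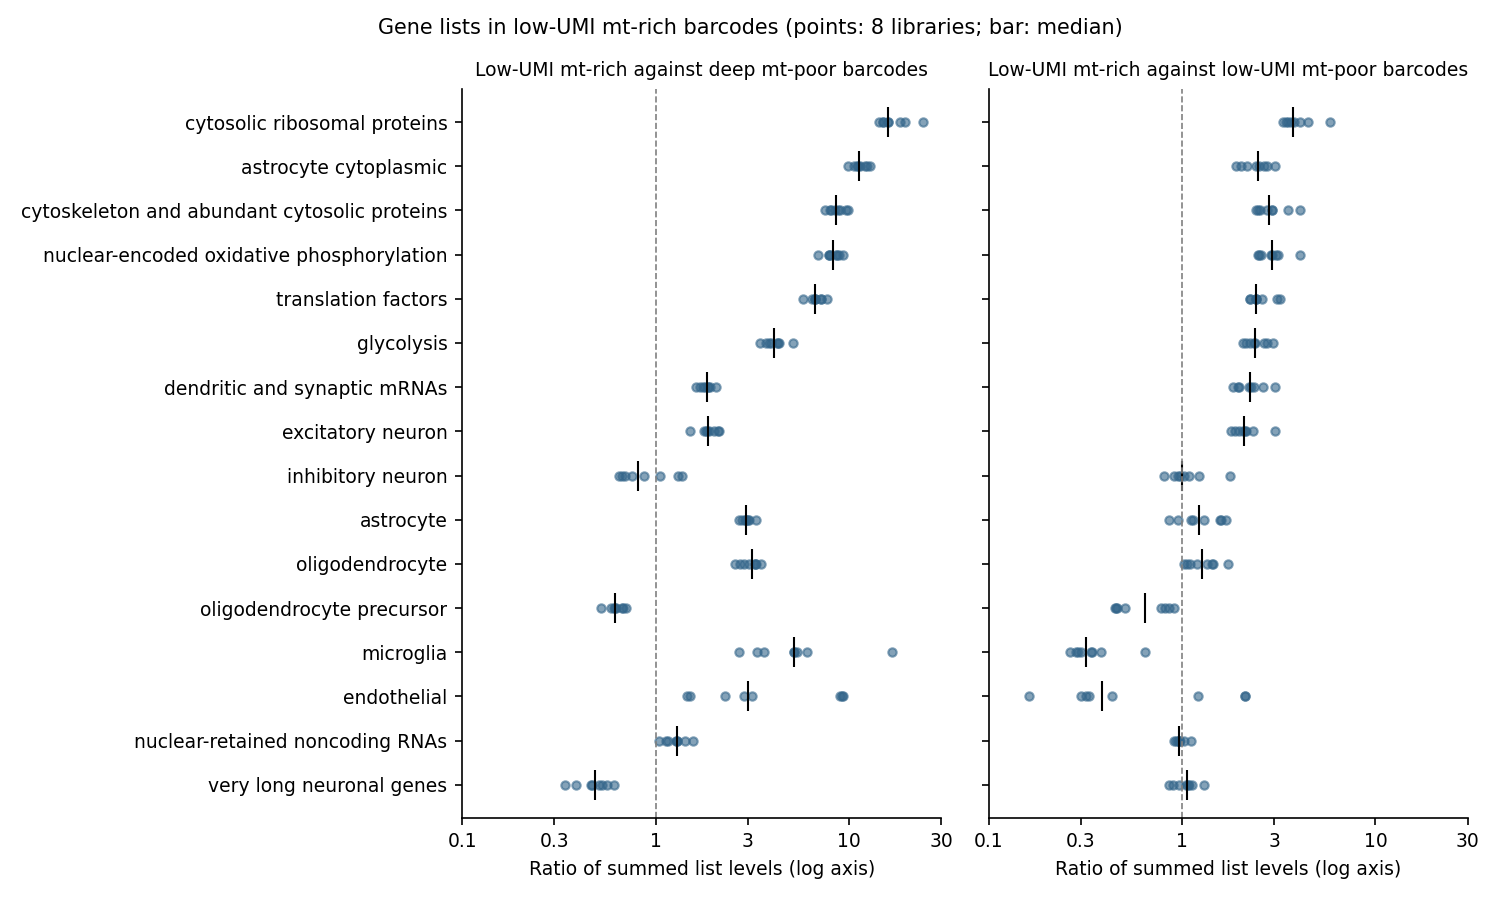
Summed level of each gene list in low-UMI mt-rich barcodes divided by that in deep mt-poor barcodes (left) and in low-UMI mt-poor barcodes (right) of the same library, on a log axis; points are the 8 libraries and bars their medians. Ribosomal protein mRNAs have the highest median of the lists plotted on both sides, with ranges of 14.3 to 24.0 and 3.32 to 5.83, while the microglial list lies above 1 on the left and below 1 on the right.

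Genes abundant in astrocyte cytoplasm formed the second group. The genes Mt1, Mt3, Aldoc and Apoe had been proposed as markers of these barcodes from the same data, so their levels are a description. Mt1, a zinc- and copper-binding metallothionein (chromosome 8, 94179082 to 94180327), was at 823, 984 and 1338 CPM against 21.1, 40.5 and 83.3 CPM. Mt3, the brain-enriched metallothionein encoded beside it, was at 613, 690 and 930 CPM against 15.4, 36.2 and 68.4 CPM. Aldoc, the aldolase isoform of astrocytes and Purkinje cells (chromosome 11, 78322968 to 78327781), was at 490, 573 and 889 CPM against 13.1, 27.0 and 54.2 CPM. Apoe, the main lipid carrier secreted by astrocytes, was at 1995, 2642 and 3228 CPM against 92.3, 172 and 264 CPM. In all 4 genes every low-UMI mt-rich library lay above every deep mt-poor library.

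The rest of the astrocyte cytoplasmic list was also higher. All 12 of its genes, the proposed ones included, were higher (median log2 3.81, from 0.84 to 4.60). Their sum was 9.90 to 12.8 times the level of the deep mt-poor barcodes. The proposed genes, summed alone, were at 17.5 to 40.2 times. They enter this count, median and sum, which therefore do not describe the rest alone. Cst3, a secreted protease inhibitor, was at 1389, 1885 and 2644 CPM against 62.6, 144 and 221 CPM (log2 3.87, SE 0.12, adjusted p = 1.36e-38). Clu, a secreted chaperone, was at 262, 497 and 609 CPM against 27.5, 46.5 and 61.0 CPM (log2 3.41, SE 0.10, adjusted p = 4.76e-39). The gene with the largest increase at a mean of 100 CPM or more in the low-UMI mt-rich barcodes was Gstm1, a glutathione transferase. It was at 139, 157 and 205 CPM against 3.09, 6.04 and 10.2 CPM (log2 4.70, SE 0.12, adjusted p = 9.79e-42). Gstm1 and its neighbour Gstm5 (log2 4.54) are close paralogs, as are Mt1 and Mt2, so reads may be split between them. Dbi, which binds acyl-CoA, and S100a1, a calcium-binding protein, followed with log2 differences of 4.44 and 4.42.

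Astrocyte identity genes outside that list divided. Of 12, 10 were higher and 1 lower, with a median of 1.84. The glutamate transporter Slc1a2, whose mRNA reaches fine astrocyte processes, was at 2216, 2845 and 3127 CPM against 654, 784 and 857 CPM (log2 1.83, SE 0.11, adjusted p = 2.16e-23). The water channel Aqp4 of astrocyte endfeet was at 40.2, 65.9 and 85.2 CPM against 5.53, 6.96 and 11.8 CPM (log2 3.11, SE 0.15, adjusted p = 8.41e-28). Gpc5, a heparan sulfate proteoglycan with a very long gene, was at 173, 244 and 393 CPM against 593, 642 and 787 CPM (log2 -1.41, SE 0.11, adjusted p = 1.70e-17). All 3 genes separated the classes in all 8 libraries, Gpc5 in the opposite direction. Against only the deep mt-poor barcodes of 1500 to 5000 UMIs, where 57.7% of 14284 genes differed (26.6% higher, 31.1% lower), 5 of the 12 astrocyte genes were higher and 4 lower (median -0.01), and Slc1a3, the other glial glutamate transporter, turned from 1.27 to -0.90. The astrocyte cytoplasmic list kept all 12 genes higher there, with a median of 2.34.

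Synaptic mRNAs were divided. Of 24 mRNAs known from dendrites and synapses, 17 were higher and 4 lower (median 1.64). Camk2n1, an inhibitor of the calcium/calmodulin kinase, was at 1232, 1616 and 2196 CPM against 82.9, 119 and 208 CPM (log2 3.68, SE 0.12, adjusted p = 1.45e-37). Ddn, a postsynaptic protein with dendritic mRNA, was at 153, 201 and 250 CPM against 9.43, 17.9 and 22.5 CPM (log2 3.68, SE 0.11, adjusted p = 5.25e-40). Nrgn, a calmodulin-binding dendritic protein, was at 853, 1002 and 1386 CPM against 141, 180 and 247 CPM (log2 2.52). Camk2a, the kinase itself, was closer, at 1042, 1434 and 1747 CPM against 691, 851 and 960 CPM (log2 0.74, SE 0.11, adjusted p = 1.78e-08). Snap25, a presynaptic fusion protein, was at 601, 794 and 916 CPM against 787, 951 and 991 CPM (log2 -0.24, adjusted p = 0.0468), and its direction turned without scaling (0.17) and against barcodes of 1500 to 5000 UMIs (0.71). Against the latter, 22 of the 24 mRNAs were higher and none lower in edgeR, with a median of 1.92.

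Markers of every cell class examined were present in the low-UMI mt-rich sums. Excitatory neuron genes had 6 of 10 higher and 4 lower (median 0.83). The vesicular glutamate transporter Slc17a7 was at 377, 483 and 663 CPM against 167, 226 and 257 CPM (log2 1.14, SE 0.10, adjusted p = 2.37e-16). Inhibitory neuron genes had 7 of 10 higher and 2 lower, but their summed level was higher in only 3 of 8 libraries (0.650 to 1.37 times). The neuropeptide gene Sst was at 69.3, 193 and 666 CPM against 14.6, 33.7 and 44.1 CPM (log2 2.97, SE 0.12, adjusted p = 3.91e-31). WT female 1 was highest, WT male 1 followed at 565 CPM, and the other 6 libraries lay at or under 335 CPM.

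Among glial and vascular lists, the microglial, endothelial, mural and fibroblast sums varied more between libraries than those of oligodendrocytes and their precursors. Oligodendrocyte genes had 9 of 12 higher and 1 lower (median 1.11), with the myelin gene Mbp at 670, 805 and 892 CPM against 274, 315 and 374 CPM. Mbp turned to -0.20 against barcodes of 1500 to 5000 UMIs, where 9 of the 12 genes were lower. Microglial genes had 11 of 12 higher and none lower in edgeR (median 2.68). C1qb, a complement chain, was at 32.1, 73.4 and 309 CPM against 5.06, 10.5 and 16.6 CPM (log2 2.93, SE 0.17, adjusted p = 6.02e-24). P2ry12, the purinergic receptor of resting microglia, was at 33.1, 60.8 and 236 CPM against 66.1, 79.7 and 92.3 CPM and did not pass the test (log2 -0.10, SE 0.15, adjusted p = 0.589). The summed microglial level was 0.372% of non-mt UMIs in WT male 1 and 0.0602% to 0.138% in the other 7 libraries. Without WT male 1 the median was 2.35, with 11 genes higher and 1 lower. The endothelial, mural and fibroblast lists had 9 of 10, 4 of 8 and 6 of 9 genes higher, with summed levels that spread from 1.45 to 9.29, 1.52 to 10.9 and 3.04 to 35.7 times those of the deep mt-poor barcodes. The highest fibroblast ratio was that of WT male 1, without which the range was 3.04 to 16.3, and Ptgds alone gave 2906 of the 3372 UMIs of that list in the low-UMI mt-rich barcodes. In WT male 1 the levels were uneven over the mt range: fibroblast markers took 1.16% of non-mt UMIs in the 36 barcodes just above 2% mt RNA and 0.0540% in the 43 just below 5%, and microglial markers 0.632% and 0.108%. Oligodendrocyte precursor genes had 6 of 10 higher and 4 lower (median 0.52), but their summed level was only 0.523 to 0.701 times that of the deep mt-poor barcodes. Of the markers of neighbouring tissue and blood, 5 of 8 striatal neuron genes were higher and 1 lower, 4 of 5 erythroid genes were higher and 1 lower, and of 4 choroid plexus and ependymal genes none was higher and 1 was lower in edgeR. In sums, more barcodes of a cell type and more RNA of that type per barcode cannot be told apart.

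Most RNAs that stay at or near the nucleus were lower gene by gene after scaling. Of 10 nuclear-retained noncoding RNAs, 1 was higher and 8 lower (median -0.71). Yet their summed level was 1.04 to 1.57 times that of the deep mt-poor barcodes, higher in 8 of 8 libraries. That sum has no TMM scaling, whose factors were 1.09 to 1.27 for low-UMI mt-rich and 0.850 to 0.883 for deep sums. Scaling thus lowers the low-UMI mt-rich levels relative to the deep ones, those of Malat1 included. Malat1, an abundant RNA of nuclear speckles, gave 301224 of the 341378 UMIs in that sum. Malat1 was at 51853, 77058 and 98126 CPM against 43486, 76540 and 95492 CPM and did not pass the test (log2 0.07, SE 0.17, adjusted p = 0.769). Meg3, an imprinted neuronal RNA, was at 3061, 5247 and 6476 CPM against 8169, 9324 and 10949 CPM (log2 -0.91, SE 0.13, adjusted p = 5.82e-09). Kcnq1ot1, an imprinted antisense RNA kept in the nucleus, was at 140, 315 and 404 CPM against 732, 871 and 1044 CPM (log2 -1.65, SE 0.11, adjusted p = 2.10e-20). Against barcodes of 1500 to 5000 UMIs, 2 of these 10 were higher and 3 lower, and Meg3 turned to 0.21.

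All 16 very long neuronal genes, whose nuclear reads come mostly from introns, were lower (median -1.48). Rbfox1, a neuronal splicing factor, was at 1142, 2421 and 3449 CPM against 6647, 7350 and 8374 CPM (log2 -1.69, SE 0.14, adjusted p = 2.79e-17). Csmd1, a synaptic complement regulator, was at 1506, 2461 and 3515 CPM against 6984, 7319 and 7719 CPM (log2 -1.64, SE 0.13, adjusted p = 1.97e-17). Neither gene overlapped between the classes. The list took 3.01%, 4.47% and 5.62% of non-mt UMIs against 8.82% to 9.61%. Against barcodes of 1500 to 5000 UMIs, 11 of the 16 were lower and none higher in edgeR (median -0.51). Of the 10 genes with the largest decrease at a mean of 100 CPM or more in the deep mt-poor barcodes, 8 were annotated antisense transcripts. That limit held only in the deep class, so the low-UMI mt-rich counts could be small. Nrg3os inside Nrg3, with 581 low-UMI mt-rich UMIs, was at 84.1, 126 and 228 CPM against 589, 790 and 865 CPM (log2 -2.48, SE 0.12, adjusted p = 1.70e-27). Gm43948 inside Pdzrn3, with only 68 such UMIs over all libraries, was at 1.87, 14.7 and 29.1 CPM against 90.0, 128 and 142 CPM (log2 -2.92, SE 0.17, adjusted p = 4.87e-24). All 10 overlap another gene, and reads of overlapping genes can be assigned to either.

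The direction of a gene's difference followed its genomic span. Among protein coding genes of GENCODE M21, the 1363 under 5 kb had a median log2 difference of 1.61, with 974 higher (71.5%) and 46 lower. The 4641 genes of 5 to 20 kb had a median of 0.51, the 6470 of 20 to 100 kb a median of -0.23 and the 1853 of 100 to 300 kb a median of -0.76. Of the 557 genes over 300 kb, 12 were higher and 519 lower (93.2%), with a median of -1.21. Across these 14884 genes, which are not independent replicates, Spearman's rho between log span and log2 difference was -0.58. The 3664 lincRNA and antisense genes had 278 higher and 1326 lower (median -0.76). Such genes could enter through the deep sums alone, so this count does not describe genes measured in both classes. Against the low-UMI mt-poor barcodes only 579 of this type were tested, 81 higher and 317 lower (median -0.60).

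**Figure D3:**
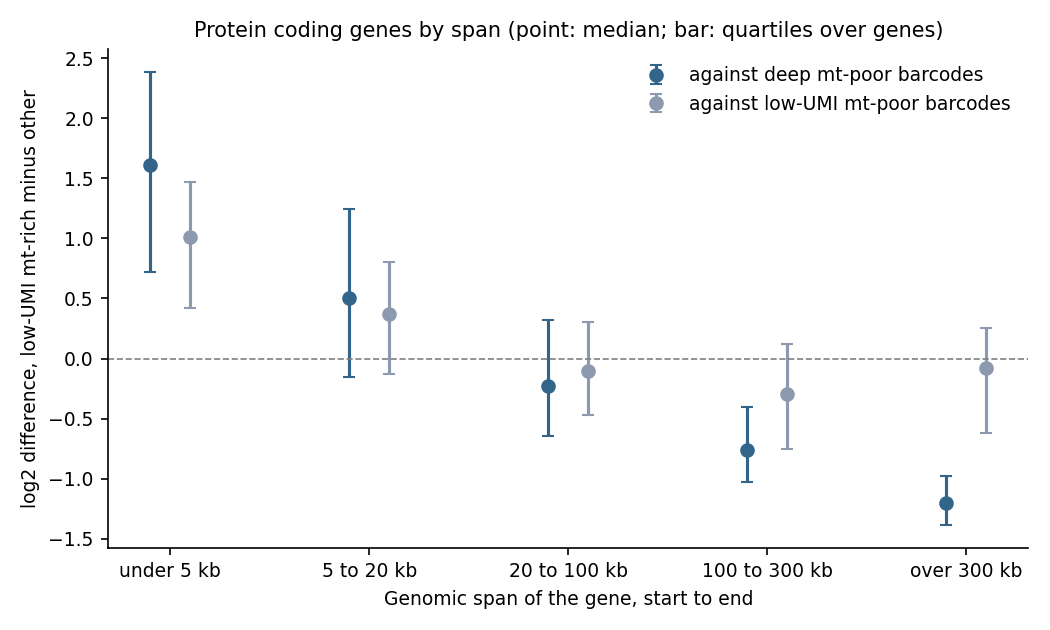
Log2 difference of protein coding genes between low-UMI mt-rich barcodes and deep mt-poor barcodes (blue) or low-UMI mt-poor barcodes (grey) by genomic span; points are medians and bars quartiles over genes. Against deep barcodes the median falls from 1.61 under 5 kb to -1.21 over 300 kb, while against low-UMI mt-poor barcodes it is 1.01 under 5 kb and -0.08 over 300 kb.

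The same comparison was made under the same upper limit of UMIs, against the low-UMI mt-poor barcodes, although the median UMI total was lower in the low-UMI mt-rich barcodes of 8 of 8 libraries. Of 9245 genes tested, 5369 (58.1%) differed, 2639 (28.5%) higher and 2730 (29.5%) lower in the low-UMI mt-rich barcodes, with a median of -0.02. Cytoplasmic mRNAs were again higher. All 77 ribosomal protein genes tested were higher (median log2 1.99), as were 69 of 72 oxidative phosphorylation genes (median 1.48), all 16 translation factors, all 24 cytoskeletal genes (median 1.26) and all 12 astrocyte cytoplasmic genes (median 1.41). Dendritic and synaptic mRNAs had 23 of 24 higher (median 1.39) and excitatory neuron genes 8 of 10 higher and 1 lower (median 0.74).

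In this comparison, which has its own scaling, Camk2n1 was at 1456, 2033 and 2717 CPM against 219, 435 and 609 CPM (log2 2.30, SE 0.11, adjusted p = 6.00e-16). S100a1 was at 144, 160 and 198 CPM against 18.7, 26.2 and 50.9 CPM (log2 2.46, SE 0.14, adjusted p = 1.78e-14). Kif5a, the neuronal kinesin that carries mRNA and mitochondria, was at 411, 758 and 927 CPM against 85.4, 139 and 204 CPM (log2 2.32, SE 0.11, adjusted p = 1.30e-15). None of these 3 overlapped between the classes.

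Microglial RNA went the other way. All 12 microglial genes were lower (median -1.43, and -1.56 without WT male 1), with a summed level 0.265 to 0.644 times that of the low-UMI mt-poor barcodes. Without WT male 1 that range was 0.265 to 0.381. The leading genes that were lower included Adap2 at 6.83, 29.0 and 216 CPM against 319, 520 and 943 CPM (log2 -3.58, SE 0.26, adjusted p = 3.13e-12) and the haematopoietic transcription factor Fli1 at 3.55, 32.8 and 66.8 CPM against 196, 257 and 403 CPM (log2 -3.27, SE 0.26, adjusted p = 1.32e-11). Both were named through a mean of at least 100 CPM in the low-UMI mt-poor class only. Adap2 had 137 and Fli1 81 low-UMI mt-rich UMIs over all libraries. Of 6 endothelial genes 1 was higher and 3 lower (summed level 0.162 to 2.12 times, higher in 3 of 8 libraries), of 4 mural genes 1 was higher and 3 lower, and of 4 fibroblast genes 1 was higher and none lower in edgeR (median 0.11, sum higher in 5 of 8 libraries). Of 7 oligodendrocyte precursor genes 1 was higher and 5 lower (median -1.07). Astrocyte identity genes divided again, with 6 of 12 higher and 2 lower (median 0.32): Slc1a2 was higher by 1.18 and Gpc5 lower by a log2 difference of -1.79.

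Few nuclear-retained RNAs and very long neuronal genes were called lower here. Malat1 was at 61293, 94008 and 125230 CPM against 65471, 96682 and 109069 CPM (log2 -0.01, SE 0.07, adjusted p = 0.884), and the libraries overlapped. Of 16 very long neuronal genes 5 were higher and 2 lower (median 0.15), and of 10 nuclear-retained noncoding RNAs 6 were higher and 1 lower (median 0.36, from -1.17 to 0.56). The summed nuclear-retained level was 0.913 to 1.12 times that of the low-UMI mt-poor barcodes, higher in only 2 of 8 libraries. For the very long genes the sum was 0.852 to 1.29 times, higher in 5 of 8. Protein coding genes under 5 kb had a median of 1.01, with 404 of 546 higher (74.0%), whereas the 509 genes over 300 kb had a median of -0.08. With the UMI limit of both classes at 1000 the calls fell to 1815 of 5086 genes (35.7%), 990 (19.5%) higher and 825 (16.2%) lower.

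Among all barcodes with at least 500 genes and under 1500 UMIs, ribosomal protein and Mt1 levels were higher at a higher mt share. The low-UMI mt-rich barcodes were the middle of that range. The median over libraries of the ribosomal protein level was 0.439% of non-mt UMIs at 0 to 0.5% mt RNA, 1.09% at 1 to 2%, 1.79% at 2 to 3%, 2.51% at 4 to 5% and 4.73% above 10%. Mt1 went from 131 CPM in the first of these ranges to 858 CPM at 2 to 3% and 2310 CPM above 10%. The astrocyte identity level was 0.438% in the first range, 0.318% at 0.5 to 1% and 0.827% above 10%. The microglial level was 0.323% in the first range, 0.132% at 2 to 3% and 0.0819% at 4 to 5%, and the endothelial level went from 0.0334% to 0.0108% over the same span and to 0.00428% above 10%. Malat1 was at 92326 CPM in the first range, 88394 CPM at 2 to 3% and 66081 CPM above 10%. The median UMI total was 1178, 856 and 1080 in those 3 ranges, so depth did not follow the mt share in one direction.

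**Figure D4:**
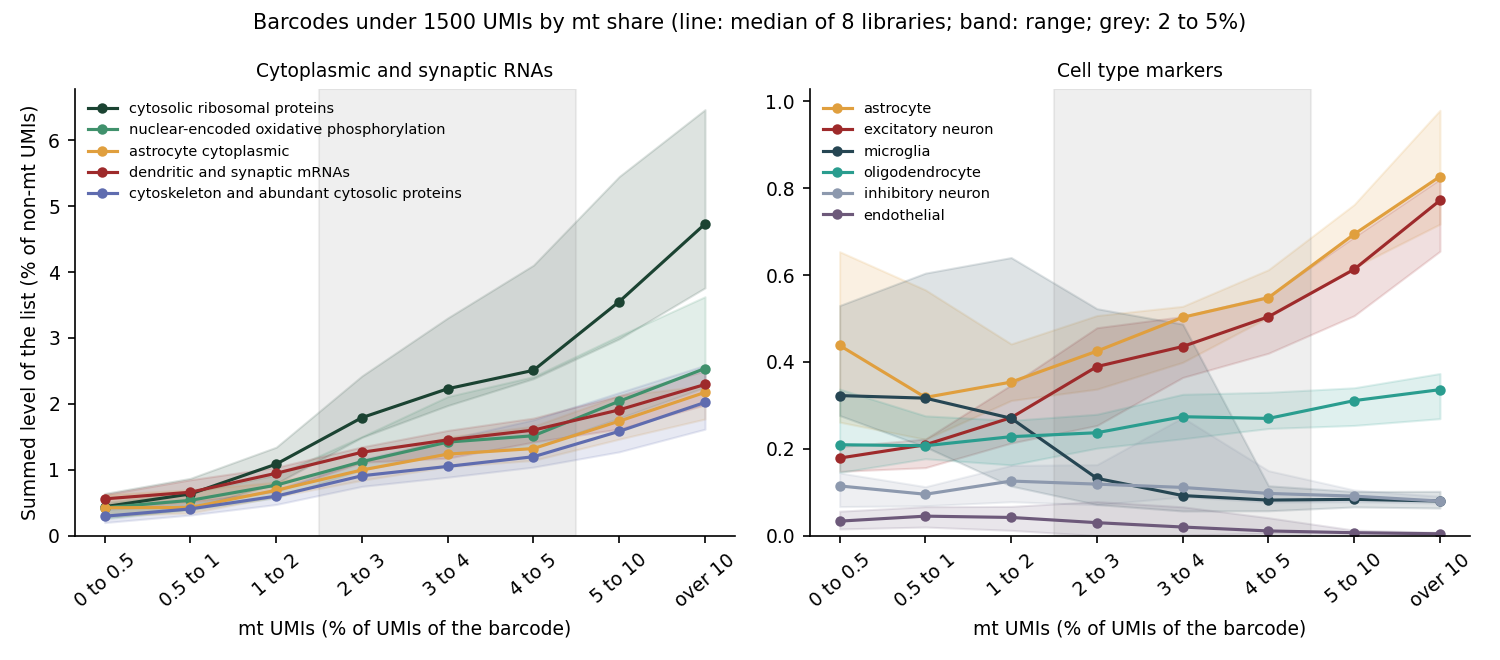
Summed level of gene lists in barcodes with at least 500 genes and under 1500 UMIs by their share of mt RNA, in percent of non-mt UMIs. Lines are medians of 8 libraries, bands the range, and grey marks 2 to 5% mt RNA. The ribosomal protein line climbs from 0.439% to 4.73%, while the microglial line falls from 0.323% at the lowest mt share to 0.0819% at 4 to 5%.

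Astrocyte identity and oligodendrocyte markers were less clumped in single barcodes of the low-UMI mt-rich class than in deep mt-poor barcodes. Each barcode was thinned to 450 non-mt UMIs, and the variance of a list's UMIs over barcodes was divided by their mean, which is 1 for counts scattered at random over barcodes. For the astrocyte identity list this ratio was 1.58 in the median library of the low-UMI mt-rich barcodes (1.49 to 2.51), 4.94 in the low-UMI mt-poor (3.68 to 6.36) and 7.53 in the deep mt-poor barcodes (6.83 to 8.15). The 3 ranges did not overlap. The median barcode held 2 astrocyte UMIs and the 95th percentile 6, against 0 and 9 in the deep mt-poor barcodes. The mean at this depth was 2.19 UMIs against 1.30. The astrocyte cytoplasmic list had a ratio of 2.62 (1.66 to 2.79), against 2.34 in the low-UMI mt-poor and 2.17 (1.92 to 2.27) in the deep mt-poor barcodes, and the proposed markers had 2.09, 2.18 and 1.49. The ratio also depends on the mean, which for the astrocyte cytoplasmic list was 5.40 UMIs in the low-UMI mt-rich, 2.24 in the low-UMI mt-poor and 0.727 in the deep mt-poor barcodes, so its ratios are not a ranking of relative spread. Low-UMI barcodes with over 5% mt RNA had an astrocyte identity ratio of 1.49 (1.37 to 1.60), so a low ratio was not particular to 2 to 5% mt RNA.

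The oligodendrocyte ratio was 2.06 (1.40 to 3.68) against 7.57 (6.92 to 8.94) in the deep mt-poor barcodes. It was 4.45 (2.34 to 7.67) in the low-UMI mt-poor barcodes, which overlapped, and 1.73 (1.29 to 1.99) in low-UMI barcodes with over 5% mt RNA. The excitatory ratio was 1.13 (1.06 to 1.76) against 1.33 (1.21 to 1.43). Inhibitory markers had a ratio of 1.54 in the median library but 6.51 in WT male 1 and 8.64 in WT female 1, where single barcodes held up to 29 and 32 UMIs of the list. The microglial ratio was 1.99 (1.11 to 5.52), highest in WT male 1. The endothelial ratio was 3.76 (1.15 to 7.02) against 3.48 in the deep mt-poor barcodes, and the erythroid ratio reached 34.3, with 48 UMIs in 1 barcode. Fibroblast markers had a ratio of 20.5 (4.74 to 70.9) and single barcodes of up to 107 UMIs in WT male 1.

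**Figure D5:**
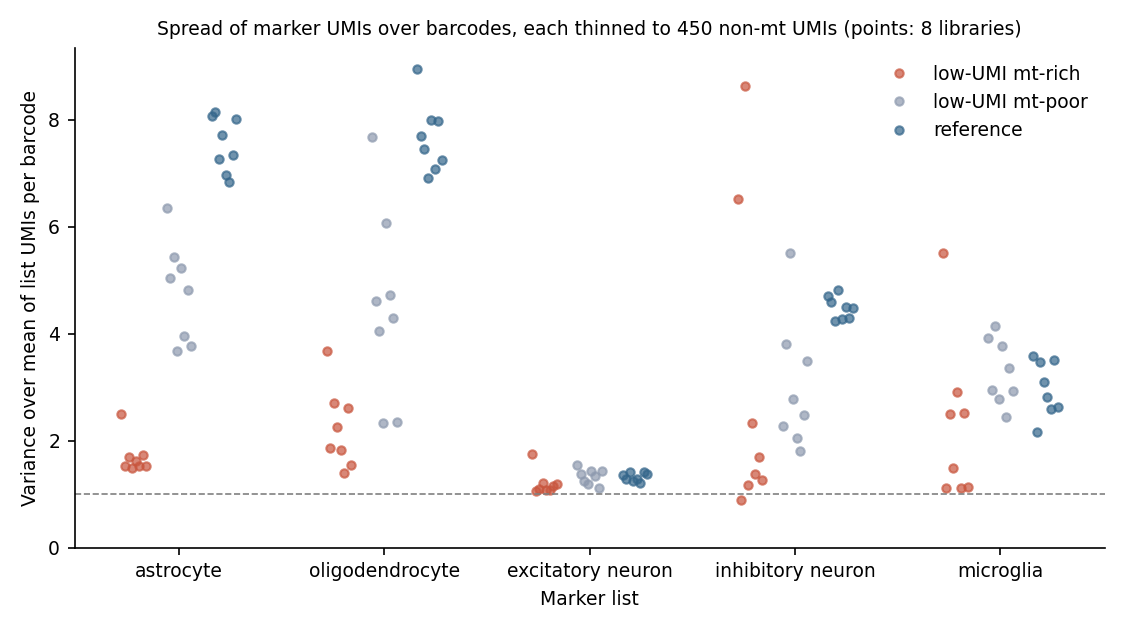
Variance over mean of marker UMIs per barcode after thinning each barcode to 450 non-mt UMIs; points are the 8 libraries and the dashed line at 1 marks random scatter. Astrocyte points lie at 1.49 to 2.51 in low-UMI mt-rich barcodes and at 6.83 to 8.15 in deep mt-poor (reference) barcodes, while excitatory points lie at 1.06 to 1.76 and 1.21 to 1.43.

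The rule used the sum of mt RNA but not how it divides over the 13 mt genes. In the counts as deposited, mt-Co2, mt-Co3, mt-Atp6, mt-Atp8 and mt-Nd4l took only 0.0022% to 0.0744% of mt UMIs each, so the percentages below describe the other 8 genes as counted there. mt-Co1, which encodes the catalytic subunit of cytochrome c oxidase, had been proposed as a marker from these data, and its share is a description: 7.95% ± 1.20 of mt UMIs in low-UMI mt-rich against 6.28% ± 1.11 in deep mt-poor barcodes (SD, n = 8), higher in 8 of 8 libraries. By an exact sign-flip test over 8 libraries with Benjamini-Hochberg adjustment over the 13 genes, 7 differed. That count includes mt-Co1, whose place in it remains a description. mt-Nd4 and mt-Nd5, subunits of complex I, were higher by 1.05 and 0.717 points in 8 of 8 libraries. mt-Nd1 was lower, at 16.9% ± 0.60 against 18.1% ± 0.57 (SD, n = 8), as were mt-Nd2, mt-Cytb and, in 7 of 8 libraries, mt-Nd3. Shares of one sum are not independent of each other. Against the low-UMI mt-poor barcodes none of the 13 passed the same exact test. The smallest adjusted exact permutation p was 0.0508, that of mt-Nd2 (-1.43 points) and of mt-Co1 (1.18 points), and those 2 alone had an unadjusted exact permutation p under 0.05 (0.0078, the smallest possible).

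Within the low-UMI mt-rich barcodes no gene passed the genotype test with sex as the only covariate, and 16 passed with the matched pairs as a block. The fit with sex alone leaves differences shared by the 2 mice of a pair in its residual. Of 7930 genes tested with sex as a covariate in edgeR, 0 (0%) passed, 213 had an unadjusted p under 0.05, and DESeq2 also called 0 with 76 unadjusted. Among the 5 genes of smallest p was Gm20713, a noncoding transcript inside Gpc5 (35.6 CPM in Chd8het and 102 CPM in WT, log2 -1.42, adjusted p = 1.00). With the 4 matched pairs as a block, 16 genes (0.202%) passed, 13 (0.164%) lower and 3 (0.0378%) higher in Chd8het. These included Ptgds (log2 -1.40, adjusted p = 7.87e-14), Inpp5d (-1.34, adjusted p = 0.00199), Maml3 (-0.91, adjusted p = 0.00199) and Gm20713 (-1.40, adjusted p = 0.00199). The 3 higher genes were Zfp804b (0.82, adjusted p = 0.00904), Robo1 (0.63, adjusted p = 0.0191) and Epha6 (0.61, adjusted p = 0.0494), named after their values were seen, of which Robo1 and Epha6 did not pass with an index type term (adjusted p = 0.0693 and 0.0989). Of the 16, 12 also passed with an index type term in place of the pairs, which called 14 genes (0.177%), 13 (0.164%) lower and 1 (0.0126%) higher. The pairs are matched on sex and replicate number, which carries the index type, so that overlap is not a second check.

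The difference between low-UMI mt-rich and deep mt-poor barcodes was compared between genotypes by an interaction term. Of 18686 genes, 2 passed (0.0107%) and 691 had an unadjusted p under 0.05. Ptgds, a prostaglandin synthase of leptomeningeal fibroblasts and oligodendrocytes, was at 3229, 723, 1365 and 315 CPM in the low-UMI mt-rich barcodes of WT male 1, male 2, female 1 and female 2, and at 947, 185, 876 and 166 CPM in the matching Chd8het libraries. Within each pair the WT library was higher, and single-indexed libraries were higher than their dual-indexed counterparts. In WT male 1 the fibroblast list, of which Ptgds is a member, took 0.752% of non-mt UMIs in 60 barcodes with 2 to 3% mt RNA, 0.543% in 78 with 3 to 4% and 0.0453% in 79 with 4 to 5%. The interaction was -1.38 (SE 0.21, adjusted p = 2.17e-06), without WT male 1 it was -0.90 (adjusted p = 0.0991) and without Chd8het female 2 it was -1.11 (adjusted p = 0.0865). The Ptgds interaction was also not called at a limit of 1000 UMIs (-0.68, adjusted p = 0.999), against deep barcodes of 1500 to 5000 UMIs (-1.29, adjusted p = 1), with the DESeq2 Wald test (-1.46, adjusted p = 1.00) or with limma (-1.39, adjusted p = 0.926). Gm20713 was at 36.6 to 144 CPM in WT and 24.3 to 35.6 CPM in Chd8het (interaction -1.28, SE 0.28, adjusted p = 0.0351). The Gm20713 interaction was not called under the 4 settings just named (adjusted p of 0.926 to 1, and -0.42 at 1000 UMIs) or with no count filter (adjusted p = 0.0761). It was also not called without WT male 1 (-0.80), WT female 1 (-1.15), Chd8het male 2 (-1.16) or Chd8het female 2 (-1.18).

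The difference was also compared between index types, which cannot be told apart from the replicate number. The interaction of class and index type passed for 494 of 18686 genes (2.64%). In dual-indexed libraries the signed log2 difference was higher for 199 (1.06%) and lower for 295 (1.58%), whichever class had the higher level. It passed for 106 genes at a limit of 1000 UMIs, 170 at 3 to 5% mt RNA and 45 with limma, which called 54 for genotype. Of 12 microglial genes, 8 had a lower signed difference (median -1.09, against 0.08 over all genes), as did 5 of 10 endothelial genes (median -2.24), while 16 of 78 ribosomal protein genes had a higher one (median 0.41). Inpp5d, an inositol phosphatase of myeloid cells, was at 272, 69.5, 98.8 and 48.7 CPM in the single-indexed and 34.7, 17.6, 12.03 and 3.70 CPM in the dual-indexed low-UMI mt-rich sums (interaction -3.38, SE 0.28, adjusted p = 5.60e-29), against 14.6 to 23.3 CPM in all deep mt-poor sums. Cdk8, a mediator kinase, was the opposite, at 132 to 169 CPM in single-indexed and 352 to 701 CPM in dual-indexed sums (interaction 1.58, SE 0.16, adjusted p = 2.45e-18).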

How the data were processed

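The authors deposited one filtered matrix of UMI counts per library (genes by barcodes), made with STAR 2.7.9a, STARsolo and Cell Ranger and the mm10 build, per the submitters' processing notes, which give no roles. No source used here gives the annotation or the settings of any cell calling. The 8 libraries are separate mice and held 69503598 to 98132783 UMIs each.

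Barcodes were classed per library by UMIs, genes and mt share, as the report states, and no doublet caller was run. The rule, the gene lists and the comparisons were chosen with earlier results of these data known, so no list is independent evidence. Counts of the non-mt genes among 32285 were summed per library and class, filtered (filterByExpr, minimum count 10), scaled by TMM and tested two-sided with edgeR 4.0.16 quasi-likelihood tests (R 4.3.3) with Benjamini-Hochberg adjustment. Library was a block between classes and sex a covariate between genotypes. Exact permutation and sign-flip tests went through every arrangement in Python 3.11.15 with numpy 2.4.6. DESeq2 1.42.0 and limma 3.58.1 were alternatives. Counts were also simulated with 200 genes changed, far fewer than the genes called between classes, so changes that widespread were not simulated. Between low-UMI mt-rich and deep mt-poor classes, 60 of 98 genes changed by log2 1 and 79 of 97 changed by log2 2 were recovered. Of all 150 calls there, 11 were false. Between genotypes, 43 of 91 genes changed by log2 1 and 84 of 84 changed by log2 2 were recovered.

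Named genes were the 15 higher and 10 lower genes of largest log2 difference at an adjusted p under 0.05, a mean of at least 100 CPM in the higher class and one direction in 8 of 8 libraries, the 5 of smallest p for genotype and interactions, and list genes; a few genes under that rule are not reported here. Spans came from GENCODE M21, which matched 18674 of 18686 tested genes.

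The matched pairs deviated together: over 1693 genes, the 4 pairs matched on sex and number had correlations, in low-UMI mt-rich sums, of 0.617, 0.597, 0.546 and 0.503. The labels describe 4 litter- and sex-matched pairs, and the shared number also carries the index type.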

Additional observations from a re-analysis of the deposited data

Results flagged for a closer look

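The share of low-UMI mt-rich barcodes in WT female 2 (6.12%) stood far above the other 3 WT libraries (2.31% to 2.61%). The microglial list took 0.372% of non-mt UMIs in the low-UMI mt-rich barcodes of WT male 1, against 0.0602% to 0.138% in the other libraries. The glycolysis list took 0.252% in WT female 2, the highest WT value. For each, the gap to the nearest WT library was large for 4 samples. Of 48 groups examined this way 3 stood apart, and chance marks about 5% of groups.

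The difference between low-UMI mt-rich and deep mt-poor barcodes differed by genotype for Ptgds (interaction -1.38) and Gm20713 (-1.28). Neither was called with the DESeq2 Wald test, with limma, at a limit of 1000 UMIs, against deep barcodes of 1500 to 5000 UMIs, or without WT male 1 or Chd8het female 2. It differed by index type for Inpp5d (-3.38), Tgfbr1 (-2.53), Zfhx3 (-2.38), Lrmda (-2.49) and Cdk8 (1.58), the 5 of smallest p. In the low-UMI mt-rich sums Tgfbr1 was at 82.4 to 281 CPM in single-indexed and 20.3 to 44.6 CPM in dual-indexed libraries, and Zfhx3 at 63.7 to 256 CPM and 28.1 to 34.7 CPM. Lrmda was at 52.4 to 268 CPM and 19.0 to 24.8 CPM. These 3 genes and Inpp5d moved with the microglial list, whose part in them was not tested.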

How the results depend on the processing

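The counts of genes that differed from deep mt-poor barcodes (10532) and from low-UMI mt-poor barcodes (5369) stayed within 1.5 times under DESeq2 size factors, the DESeq2 Wald test, no count filter, 3 to 5% mt RNA and limma on log2 differences within libraries. They ran from 9838 to 10452 (4355 to 4613 higher, 5476 to 5839 lower) and from 4934 to 5295 (2400 to 2817 higher, 2208 to 2645 lower) with each library left out. Against deep mt-poor barcodes, no scaling left 3351 genes lower, and 20 CPM or more in the mean over both classes left 5556 (2829 higher, 2727 lower). Against low-UMI mt-poor barcodes a limit of 1000 UMIs gave 1815 (990 higher, 825 lower), with fewer genes tested. By genotype, 16 genes passed with the replicate block, which uses the matched pairs, and 14 with an index type term. With sex as the only covariate 0 passed, 3 with no filter and 0 to 0 with each library left out. For the share, the block changed only the test (2.83 points, exact permutation p = 0.125). Leaving out a library gave 2.19 to 3.75 points by genotype (exact permutation p from 0.0286 to 0.143) and 1.25 to 3.08 points by index type. The highest genotype difference and smallest p came without WT female 2, where that p is the smallest possible. At a limit of 1000 UMIs the share differed by 1.52 points by genotype and 1.00 by index type, against 2.83 and 2.02. The interaction with genotype called 2 genes. It called 4 with DESeq2 size factors or 3 to 5% mt RNA, 0 with the DESeq2 Wald test, a limit of 1000 UMIs or deep barcodes of 1500 to 5000 UMIs, 1 with no filter, 54 with limma, and 0 to 52 with a library left out (0 without WT male 1 or Chd8het female 2, 52 without WT female 2, 28 without Chd8het male 1, 8 without WT male 2, 1 without WT female 1 or Chd8het male 2). The interaction with index type called 494 genes, and 175 with the DESeq2 Wald test, 106 at 1000 UMIs, 170 at 3 to 5% mt RNA, 1239 against deep barcodes of 1500 to 5000 UMIs, 45 with limma and 262 to 557 with a library left out (262 without Chd8het male 2, 284 without WT male 1, 295 without Chd8het male 1). Of mt genes whose share differed (7), 6 to 7 genes were called with a library left out and 0 against low-UMI mt-poor barcodes. The cause was not tested.

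Among genes reported here, directions turned for 5 against deep barcodes of 1500 to 5000 UMIs: Slc1a3 (-0.90), Meg3 (0.21), Snap25 (0.71), Pdgfra (-1.74) and Mbp (-0.20). Of these, Pdgfra, from the oligodendrocyte precursor list, is named only here. Snap25 and P2ry12 turned without scaling (0.17 and 0.30) and at 20 CPM or more (0.069 and 0.19), and P2ry12 with a library left out (-0.39 to 0.073, the highest without Chd8het male 2). Against low-UMI mt-poor barcodes, Slc1a3 (0.095) and Rbfox1 (-0.011) turned at 1000 UMIs, and Malat1 at 3 to 5% mt RNA (0.0089), at 20 CPM or more (0.0083) and with a library left out (-0.048 to 0.075). The interaction of Inpp5d with genotype ran from -2.19 to 0.098 with a library left out and turned without WT male 1. At 176192 to 950742 UMIs per low-UMI mt-rich sum, genes of low level and log2 differences near 1 by genotype were often below detection.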

Other observations

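The 974 barcodes with at least 1500 UMIs and 2 to 5% mt RNA, at the same mt share but greater depth, entered no tested comparison. Their ribosomal protein mRNAs took 1.11% to 1.82% of non-mt UMIs, and the low-UMI mt-rich barcodes of the same library were 1.504 to 2.04 times higher, in 8 of 8 libraries. For the astrocyte cytoplasmic list the low-UMI mt-rich barcodes were 1.58 to 2.23 times higher and for dendritic and synaptic mRNAs 1.26 to 1.85 times, also in 8 of 8. Astrocyte identity genes were at 0.410% to 0.626% in the deeper barcodes, a ratio of 0.752 to 1.17, with 6 of 8 libraries higher. Very long neuronal genes were at 5.04% to 6.33%, and the low-UMI mt-rich barcodes were at 0.504 to 0.888 times that level in all 8 libraries. The deeper group was described without a test.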
